A study of Mus musculus with 6 samples.

Results

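The early response of mouse eosinophils to the cytokine IL-33 was described here from 1 comparison, in which cells given IL-33 for 1 h were set against untreated cells of the same time. Of 22548 gene symbols in the deposited table, 10616 reached an FPKM of 1 in either library and were compared. FPKM counts sequenced fragments per length of transcript and per size of library. Both libraries came from wild-type BALB/c mice of 4 to 8 weeks, as did the 4 other libraries of the series. Their low-density bone marrow cells were cultured for 14 days, first for 4 days with 100 ng/ml of both stem cell factor and FLT3 ligand and afterwards with 10 ng/ml of IL-5, so the untreated cells too had grown in IL-5. The treated cells then received IL-33 at 10 ng/ml. With 1 library a group there is no replicate check on any difference below, and p-values are not given. The number of mice behind a library was not given in the sources used here.

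IL-33 is released by damaged epithelium and binds the receptor ST2, encoded by Il1rl1, on eosinophils, mast cells and type 2 lymphocytes. The receptor recruits MyD88 and IRAK kinases, which activate the IkB kinases and the MAP kinases. NF-kB then enters the nucleus and AP-1 factors are made, and both act on genes that respond without new protein synthesis, among them the genes of their own inhibitors.

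The change of a gene is given as log2((IL-33 FPKM + 1) / (untreated FPKM + 1)), which shrinks the changes of weakly expressed genes. A gene is called higher or lower when this change is at least 1 or at most -1. Of the 10616 genes, 251 were higher (2.36%) and 71 lower (0.669%). Small RNA genes, whose FPKM is unsteady because their transcripts are short, made up 44 of the higher and 41 of the lower genes. Over the other 10479 genes, 207 were higher (1.98%) and 30 lower (0.286%), and the descriptions below are of these. The median change over the 10479 genes was -0.01. A gene at 1 FPKM had about 20.7 reads per kilobase of transcript in the untreated library and 24.0 with IL-33, as estimated from the steps between the lowest values. The IL-33 library was thus about 1.16 times as deep.

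The libraries were checked against markers. The major basic protein gene Prg2 was at 43670 FPKM in the untreated library and 43240 after IL-33, and the peroxidase gene Epx at 2039 and 2088. Among the other eosinophil markers, Cebpe (-0.46), Gata1 (-0.40, 72.5 and 54.8 FPKM) and Ccr3 (-0.35) stood lower after IL-33. Prg3 (0.05), Il5ra (0.06), Siglec5 (0.01), Ear1 (-0.01) and Ear2 (-0.03) lay near 0. Of 30 compared eosinophil granule and identity genes 13 lay above 0 and 17 below (median -0.01, lowest -0.85). Markers of other blood cells were also present in both libraries. The summed level of 21 neutrophil markers was 7556 and 8084 FPKM, that of the monocyte, macrophage and dendritic markers 4577 and 4720, and that of the mast cell and basophil markers 443.0 and 510.9. The 22 lymphoid markers of the table summed to 48.9 and 54.3 FPKM. Of 11 compared, 8 lay above 0 and 3 below (median 0.21). The CD3 chain genes Cd3g (14.1 and 12.2) and Cd3d (8.48 and 8.27) were among those below. Il7r (6.36 and 8.03) was among those above. Cd3e was under the filter, at 0 and 0.0628. Of 12 compared stromal markers 7 lay between 0.5 and 1 and none was past the rule (median 0.56), at low levels such as 0.419 and 1.58 FPKM for the collagen gene Col1a1, and 11 of the 12 lay above 0. The exception, Vim (721 and 629 FPKM), which leukocytes also express, made up most of the 828 and 756 FPKM that all 20 stromal markers of the table summed to. Of 20 heart muscle transcripts 18 lay below 0 (median -0.36), with sums of 223 and 179 FPKM over the 24 in the table. Their median was -0.40 with IL-4 at 1 h too, which shares the untreated library. In the separately normalised table of 4 h they summed to 16.18 FPKM untreated and 33.45 with IL-33. The part of these in the changes below was not tested. RNA from bulk cultures cannot tell fewer cells of a type from less RNA per cell.

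Because kappa B sites are the DNA letters that NF-kB binds, 4 promoters of genes with changes of at least 3 are shown first. Each line gives the 250 bases before the start of the gene, 5′ to 3′ on the gene's strand, from RefSeq on build GRCm38.p6. Capitals mark matches to the kappa B letters GGNNTTTCC on either strand.
Cxcl2, chr5:90903649-90903898, plus strand: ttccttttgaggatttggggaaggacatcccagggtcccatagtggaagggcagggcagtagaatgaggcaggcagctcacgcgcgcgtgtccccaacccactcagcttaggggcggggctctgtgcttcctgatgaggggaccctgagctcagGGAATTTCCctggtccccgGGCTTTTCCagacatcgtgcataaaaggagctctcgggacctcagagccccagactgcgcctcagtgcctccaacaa
Nfkbia, chr12:55492648-55492897, minus strand: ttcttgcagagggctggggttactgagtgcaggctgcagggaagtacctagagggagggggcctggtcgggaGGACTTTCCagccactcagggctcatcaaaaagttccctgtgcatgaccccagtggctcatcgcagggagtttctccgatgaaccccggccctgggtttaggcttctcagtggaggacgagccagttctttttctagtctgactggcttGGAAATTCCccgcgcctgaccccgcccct
Icam1, chr9:21015690-21015939, plus strand: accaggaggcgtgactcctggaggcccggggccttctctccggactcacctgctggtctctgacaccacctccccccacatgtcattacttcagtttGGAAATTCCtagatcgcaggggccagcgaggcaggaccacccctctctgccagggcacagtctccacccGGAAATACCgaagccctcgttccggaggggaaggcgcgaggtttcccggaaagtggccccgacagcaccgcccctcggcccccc
Il6, chr5:30012864-30013113, plus strand: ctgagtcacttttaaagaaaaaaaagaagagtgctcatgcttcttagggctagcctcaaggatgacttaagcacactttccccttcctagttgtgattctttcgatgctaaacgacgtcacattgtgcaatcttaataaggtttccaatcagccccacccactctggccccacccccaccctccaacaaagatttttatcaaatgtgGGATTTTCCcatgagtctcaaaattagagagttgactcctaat
Cxcl2 and Nfkbia carried 2 matches each in these windows, Icam1 also 2 and Il6 1. The match nearest to the start began 29 bases before it in Nfkbia, 43 in Il6, 77 in Cxcl2 and 84 in Icam1. Of these genes, Cxcl2 rose from 14.3 to 699.5 FPKM (5.51), Il6 from 7.31 to 216 FPKM (4.71), Nfkbia from 68.7 to 1083 FPKM (3.96) and Icam1 from 9.40 to 126 FPKM (3.61). A match is a description of the letters and was not tested as a binding site.

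Over the size classes, the share of promoters with these letters was larger the larger the rise. The window ran from 250 bases before to 50 after the start, and 8458 of the 10479 genes (80.7%) had one in the RefSeq table. Where a gene had several promoters, only the first listed was read, which need not be the one used in these cells. Pde4b had 4, Ccrl2 3 and Tnfaip3 2. Of 19 promoters of genes higher by at least 3, 9 held a kappa B match (47.4%), followed by 7 of 32 for rises of 2 to 3 (21.9%), 18 of 119 for rises of 1 to 2 (15.1%) and 30 of 270 for changes of 0.5 to 1 (11.1%). Genes within 0.5 of no change held one in 5.6% of 7697 promoters, and genes lower by at least 1 in 1 of 24. Over all 27025 genes of the promoter table the share was 5.72%. Besides Cxcl2, Nfkbia, Icam1 and Il6, the matched genes of the top class were Tnfaip3, Ccrl2, Cxcl10, Irg1 and Cish. No match lay in this window of Tnf, Zc3h12a, Adora2b, Nr4a3, Ptgs2, Pde4b, Nfkbie and Clec4e, among others, which says only that the letters are not there. Nfkbiz, Cd69 and Niacr1 had no entry.

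AP-1 letters (TGANTCA) were in 4 of 19 promoters (21.1%), 5 of 32 (15.6%), 11 of 119 (9.24%) and 15 of 270 (5.56%) from the top class down, against 4.83% of the genes within 0.5 and 7.93% of the whole promoter table. The cyclic AMP response letters (TGACGTCA, a palindrome) were in no promoter of the genes higher by 2 or more, in 7 of 119 of those higher by 1 to 2 (5.88%) and in 3.42% of the genes within 0.5. STAT letters (TTCNNNGAA) were in 2 of 19, 4 of 32 and 9 of 119 promoters of the 3 classes of higher genes, against 6.91% of the genes within 0.5 and 8.47% of the whole table. CArG boxes, which serum response factor binds, were in 2 of the 170 promoters of higher genes (1.18%) and in 1.42% of all 8458. Both strands were searched for each motif, and a kappa B match and a STAT match can share bases.

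**Figure D1:**
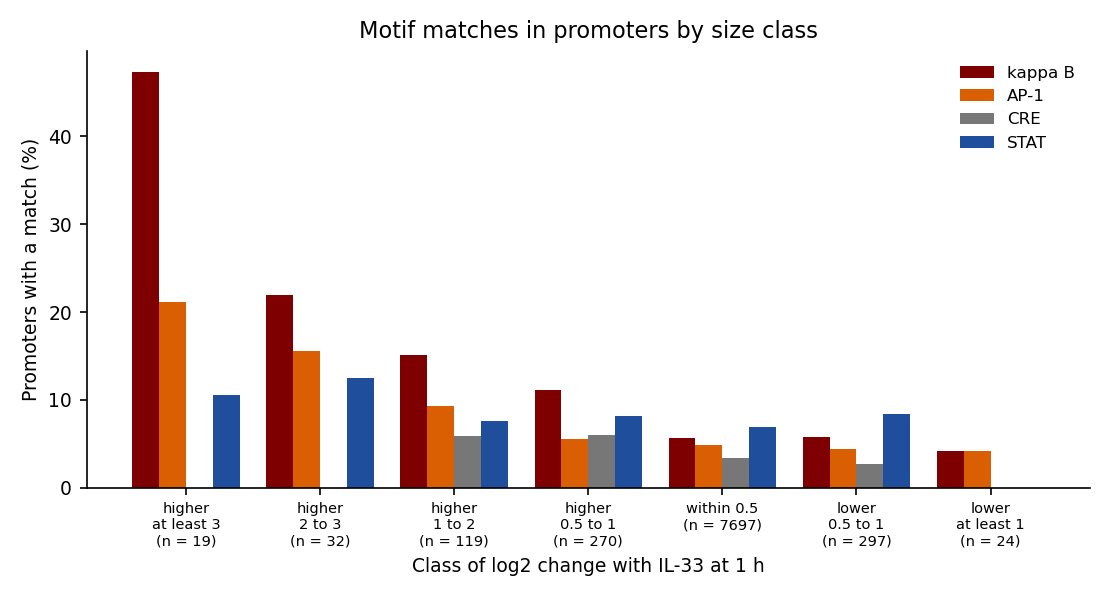
Share of promoters with a match (vertical axis, percent) by class of log2 change at 1 h (horizontal axis, with the number of promoters) for kappa B, AP-1, CRE and STAT letters. The kappa B bars fall from 47.4% in the top class to 5.6% among genes within 0.5, and the STAT bars stay between 6.91% and 12.5% except in the class of lower genes, where no promoter had a match.

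By size, 4 genes were higher by at least 5, 7 by 4 to 5, 11 by 3 to 4, 38 by 2 to 3 and 147 by 1 to 2. Outside the rule, 335 genes lay between 0.5 and 1 and 361 between -1 and -0.5, so that 542 genes (5.17%) changed upward by at least 0.5 and 391 (3.73%) downward by as much. The downward changes were small: of the 391 genes, 30 reached -1. The 207 higher genes held 1.01% of the summed FPKM of the untreated library and 3.8% of that with IL-33 (7024 and 28575 FPKM). The 22 genes of the top class held 6590 FPKM of this, and the 147 genes of the class of 1 to 2 held 15540.

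Rises came from every range of untreated level. Of 2917 genes at 1 to 5 FPKM without cytokine, 51 were higher (1.75%), of 3707 at 5 to 20 66 (1.78%), of 2782 at 20 to 100 59 (2.12%) and of 876 at 100 or more 12 (1.37%). Genes under 1 FPKM enter the comparison only if IL-33 brought them above 1, so their 19 of 197 is set by the filter. Ccl20, a chemokine gene for CCR6-bearing cells, was listed at 0 without cytokine and stood at 3.83 FPKM with IL-33. The calcium channel regulator Gem stood at 0.742 and 8.46 FPKM, Traf1, an adaptor of TNF receptors, at 0.634 and 6.40, and Bmp2, a bone morphogenetic protein, at 0.562 and 4.79. By the depth estimate, Gem and Traf1 had about 31 reads each in the untreated library and Bmp2 about 41.

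**Figure D2:**
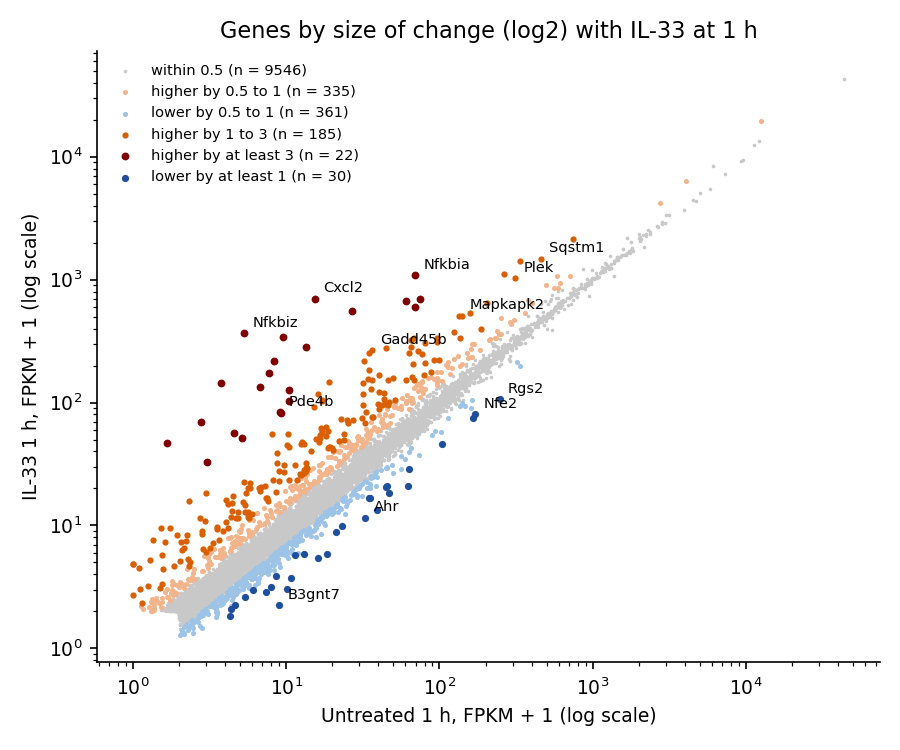
FPKM + 1 of each of 10479 genes in the untreated library (horizontal axis, log scale) and with IL-33 (vertical axis, log scale), coloured by class of log2 change. Higher genes lie along the whole range of untreated levels, and the 30 lower genes lie below the band of genes within 0.5, from B3gnt7 at low to Rgs2 at high levels.

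In absolute level, the largest gains were not those of the largest folds. Fth1, the ferritin heavy chain that stores iron, gained most, from 12470 to 19505 FPKM, a change of 0.65 that stayed under the rule. The cytoplasmic actin genes Actb (6091 and 8428 FPKM) and Actg1 (4069 and 6345) and the granule proteoglycan gene Srgn (2734 and 4192) followed, also without passing the rule. Among genes that did pass it, Serpinb2, a protease inhibitor of the plasminogen system, rose from 738 to 2153 FPKM (1.54). Sqstm1, the autophagy adaptor p62, rose from 458 to 1480 (1.69), and Plek, the protein kinase C substrate pleckstrin, from 311 to 1025 (1.72). These 3 had some 19000 to 30000 reads in the untreated library by the same estimate. All 3 stood in the class of rises of 1 to 2.

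List counts below are to be read beside the 1.98% of all 10479 genes that were higher and the 0.286% that were lower. At these shares a short list may hold none. List counts also include higher genes that passed the filter only through the IL-33 library. Map3k8, Dusp8, Bmp2, Gem, Traf1 and Zfp599 are such genes. Signal transduction was described from the receptor inwards. Il1rl1, the IL-33 receptor gene, was at 52.7 FPKM in untreated cells and at 44.2 after IL-33 (-0.25). Its 2 transcripts, the long form NM_001025602 and the shorter NM_010743, stood at 48 and 39.8 FPKM and at 4.70 and 4.41. Of 23 genes of the IL-33 receptor and its MyD88 and IRAK signalling, 2 were higher, Map3k8, a kinase that activates MAP kinase kinases (0.583 to 3.41 FPKM, 1.48), and Tifa, a TRAF-interacting adaptor (2.32 to 6.21, 1.12). The median of the list was 0.06. Of 15 NF-kB subunits and IkB kinases 3 were higher, Nfkb2, the p100 precursor (15.1 to 116, 2.85), Relb (9.27 to 54.3, 2.43) and Rel (12.2 to 44.6, 1.79). Nfkb1 stood at 44.8 and 47.1 FPKM and the kinase gene Ikbkb at 39.9 and 40.2.

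The IkB family, whose members hold NF-kB in the cytoplasm or steer it in the nucleus, was the list with the highest median of all 58 (2.95). Of its 7 compared genes, 6 were higher. Below Nfkbiz and Nfkbia, Nfkbie (IkB-epsilon) rose from 8.32 to 80.5 FPKM (3.13), Nfkbid, a nuclear IkB, from 17.9 to 145 (2.95), Bcl3, another nuclear member, from 7.11 to 54.3 (2.77) and Nfkbib (IkB-beta) from 17.1 to 52.2 (1.56). The exception was Nfkbil1, at 12 and 10.4 FPKM. In the table of 4 h, Nfkbid was at 19.0 FPKM untreated and 39.2 after IL-33 (1.01), and Nfkbib at 15.9 and 31.4 (0.94).

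Other brakes were raised in few members of each list. Of 19 ubiquitin-editing genes 3 were higher, among them Rnf19b, a ubiquitin ligase (75.9 to 249 FPKM, 1.70), and N4bp1 (10.4 to 30.1, 1.45), while Tax1bp1, a cofactor of A20, stood at 168 and 301 (0.83). Usp18, which removes ISG15 and restrains interferon receptors, fell from 44.9 to 19.9 FPKM (-1.14). Of 26 regulators of mRNA decay 3 were higher. Zc3h12c, a relative of the ribonuclease Zc3h12a, rose from 1.84 to 8.05 FPKM (1.67) and Zfp36l1 from 7.64 to 17.8 (1.12). Its relatives Zfp36 (95.5 and 145 FPKM, 0.60) and Zfp36l2 (113 and 74.0, -0.60) did not pass the rule and changed in opposite directions. Tob1, which recruits deadenylases, fell from 22.0 to 8.91 FPKM (-1.22).

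Of 35 MAP kinases and their kinases 2 were higher, Mapkapk2, the p38 target that stabilises cytokine mRNA (139 to 508 FPKM, 1.86), and the atypical kinase gene Mapk6 (49.2 to 156, 1.65). Mapk3, which encodes ERK1, stood at 293 and 272. Of 16 MAP kinase phosphatases and Sprouty genes 3 were higher, Dusp2 (1.74 to 10.5, 2.06), Dusp16 (4.48 to 17.5, 1.75) and Dusp8 (0.116 to 2.04, 1.44), each under 20 FPKM. The more abundant Dusp1 (52.7 and 64.2 FPKM, 0.28), Dusp5 (76.8 and 74.6) and Dusp6 (52.3 and 48.4) were not past the rule. Of 29 JAK, STAT, SOCS and PIM genes 5 were higher, with all 3 PIM kinase genes among them: Pim1, Pim2 (3.19 to 14.0, 1.84) and Pim3 (9.50 to 42.8, 2.06). Socs3 rose from 2.56 to 8.37 FPKM, and Stat6 stood at 118 and 130. No PI3-kinase or inositol lipid gene of 29 was past the rule, where 1.98% of all genes were higher, and 16 of them lay below 0.

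**Figure D3:**
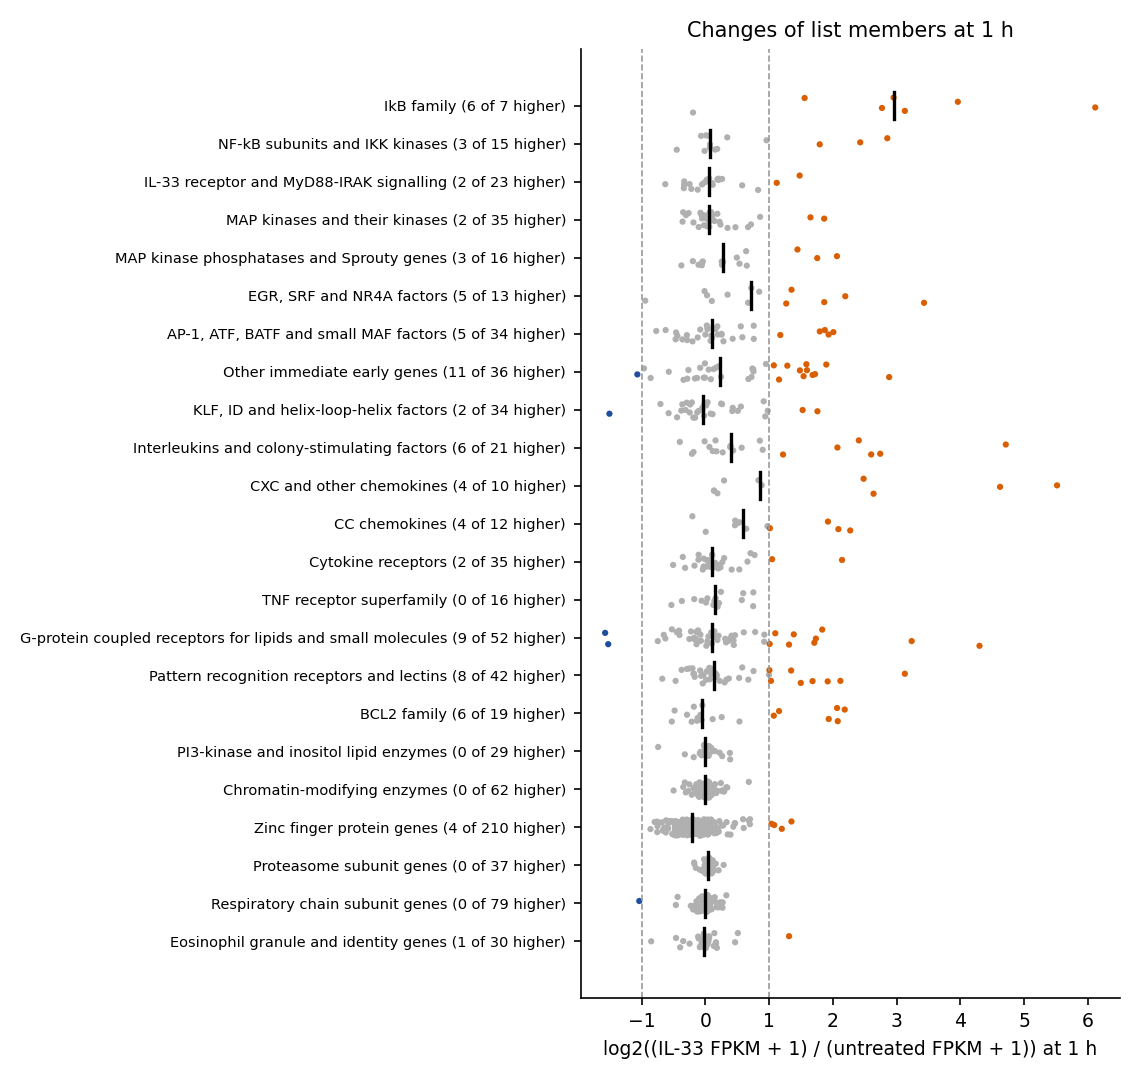
Log2 change at 1 h (horizontal axis) of each compared member (points) of 23 of the 58 gene lists, with the list median (black bar) and the rule of size (dashed lines at -1 and 1). Orange points are higher and blue points lower. The IkB family has 6 of 7 members past 1. Chromatin, proteasome and PI3-kinase genes have none, but over all 10479 genes only 1.98% were higher, so lists of this size may hold none.

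Transcription factor genes of the immediate early class were next. Of 13 EGR, SRF and NR4A genes 5 were higher (median 0.72): Nr4a3, Nr4a1 (30.5 to 143 FPKM, 2.19), Egr3 (71.5 to 263, 1.86), Egr1 (32.0 to 83.2, 1.35) and Egr2. Mkl1, a coactivator of serum response factor, stood at 54.8 and 28.0 FPKM (-0.94). Of 34 AP-1, ATF, BATF and small MAF genes 5 were higher, Junb (61.9 to 252, 2.01), Fosl1 (3.53 to 16.3, 1.93), Jun (7.72 to 30.9, 1.87), Maff (4.83 to 19.2, 1.79) and Fosb (9.39 to 22.5, 1.17). Jund stood at 161 and 273 (0.76) and Cebpb at 245 and 360 (0.56). The list did not move as 1, with 22 members above 0 and 12 below and a median of 0.10. Fos (-0.62) and Cebpd (-0.77) were among those below 0. EGR levels in untreated cells differed between the times, with Egr3 at 71.5 FPKM at 1 h and 3.21 in the separately normalised table of 4 h.

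Of 36 other immediate early genes 11 were higher and 1 lower. The stress genes Gadd45b (35.4 to 268 FPKM, 2.88) and Gadd45a (124 to 375, 1.59), the survival gene Ier3 (30.5 to 116, 1.90) and Ifrd1 (22.0 to 72.6, 1.68) had the largest changes together with Ier5 (45.1 to 151, 1.72). Tsc22d3, which encodes the glucocorticoid-induced protein GILZ, fell from 34.2 to 15.8 FPKM (-1.07). Rhob, a short-lived small GTPase, stood at 72.5 and 36.7 (-0.96). Among 34 KLF, ID and helix-loop-helix genes Mxd1, an antagonist of MYC, rose from 158 to 536 FPKM (1.76) and Klf10 from 24.0 to 70.9 (1.53), while the aryl hydrocarbon receptor gene Ahr fell (31.8 to 10.6, -1.51). Of 9 interferon regulatory factors only Irf5 was past the rule, narrowly (36.0 to 75.3, 1.04). Of 32 granulocyte lineage factors 2 were higher, Ets2 (17.1 to 61.8, 1.79) and Tgif1 (41.0 to 94.2, 1.18). Sfpi1, which encodes PU.1, stood at 450 and 448, Cebpe at 539 and 392 (-0.46). None of 62 chromatin-modifying enzyme genes was past the rule, where 1.98% of all genes were higher, and their lowest change was -0.50.

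Secreted signals were described by family. Of 21 interleukins and colony-stimulating factors compared, 6 were higher, with Il1a (33.6 to 182 FPKM, 2.41), the IL-1 receptor antagonist Il1rn (262 to 1103, 2.07) and Il16, a CD4 ligand (22.7 to 54.1, 1.22), beside Il6, Il1b and Il13. Of the Il1rn transcripts, NM_001039701 stood at 128 and 842 FPKM and NM_001159562 at 124 and 182. Csf1 stood at 495 and 896 (0.85). Il5 was listed at 0 in both libraries, and Csf2, which encodes GM-CSF, stood at 0.0540 and 0.747, under the filter. Of 5 compared TNF family ligands, 2 were higher, Tnf and its neighbour Ltb (96.1 to 336, 1.79). Of 16 growth factors and tissue signals Bmp2 (1.89) and Metrnl (13.6 to 39.7, 1.48) were higher, and Tgfb1 stood at 208 and 222. Of 10 CXC and other chemokines compared, of 16 listed, 4 were higher and the others all lay above 0 (median 0.86). Of 12 CC chemokines 4 were higher, with Ccl4 (132 to 505, 1.92) and Ccl7 (19.3 to 39.9, 1.01) among them. Cxcl1 (0.361 and 6.60 FPKM), Ccl20, Bmp2 (0.562 and 4.79) and the TNF family ligand Tnfsf9 (0.175 and 1.09) passed the filter only through the IL-33 library. The filter thus moves the counts and medians of such lists upward. Ccl6 stood at 7267 and 7290 FPKM, and the summed level of the CC chemokines was 7974 and 9584 FPKM.

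Il4 was a case in which the gene sum hid a transcript. The gene, on chromosome 11, stood at 75.8 and 103 FPKM in sum (0.44), under the rule. Its RefSeq transcripts are the coding NM_021283 and NR_027491, whose accession is of the non-coding kind. The coding transcript was at 4.33 FPKM in untreated cells and at 29.2 after IL-33 (2.50), and the non-coding one at 71.5 and 73.8 (0.05). At 4 h the coding transcript stood at 2.78 and 14.8 (2.07), and the non-coding one at 80.1 and 89.5. With IL-4 the coding transcript stood at 4.59 and 4.69 at 1 h and at 2.93 and 1.76 at 4 h. Cuffdiff divides reads between overlapping transcripts by estimate, and such divisions vary. Among 2348 transcripts at 5 FPKM or more of genes with several transcripts that did not pass the rule, 12 (0.511%) had a change of at least 1.5 and 28 (1.19%) one of at most -1.5.

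Receptor genes changed in a few members per family. Of 35 cytokine receptors 2 were higher, the IL-10 receptor gene Il10ra (7.75 to 37.7 FPKM, 2.14) and Ifnar1 (11.6 to 25.1, 1.05). The shared chain of the IL-5 receptor, Csf2rb, stood at 897 and 879. None of 16 TNF receptor genes was past the rule, where 1.98% of all genes were higher, with Tnfrsf1b at 33.3 and 56.7 (0.75). Of 13 chemokine receptors Ccrl2 alone was higher. Cxcr4 stood at 531 and 698 (0.39) and the eotaxin receptor Ccr3 at 504 and 396 (-0.35).

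Receptors for lipids and small molecules had 9 higher genes of 52 and 2 lower. The nicotinic acid and ketone body receptor Niacr1 rose from 73.3 to 698 FPKM (3.24). The medium-chain fatty acid receptor Gpr84 (1.06 to 6.35, 1.83), the adenosine receptor Adora2a (15.6 to 53.1, 1.71) and Gpr132 (16.1 to 55.8, 1.73) rose less. The prostacyclin receptor Ptgir (3.08 to 9.66, 1.39) and the platelet-activating factor receptor Ptafr (135 to 336, 1.31) were higher too. Ptafr was the 1 higher gene of the 30 eosinophil granule and identity genes. The lysophosphatidic acid receptor Lpar6 (38.4 to 12.3, -1.57) and Gpr146 (9.79 to 2.75, -1.52) fell. Rgs2, a brake on G-protein signalling, fell from 246 to 106 FPKM (-1.21), and Gna13 rose from 39.5 to 87.2 (1.12). Pde4b, the phosphodiesterase that breaks down the cyclic AMP made downstream of adenosine and prostacyclin receptors, rose from 8.15 to 82.4 FPKM (3.19).

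Of 42 pattern recognition receptors and lectins 8 were higher, with Nod2 (4.84 to 21.1, 1.92), Tlr2 (14.6 to 49.1, 1.68), Nlrp3 (5.80 to 18.2) and, at the edge of the rule, Cd14 (86.5 to 178, 1.03) and Tlr9 (1.33 to 3.67, 1.00). Cd14 was also the 1 higher gene of 21 monocyte and macrophage markers, whose median was 0.06. Of 38 inhibitory and Fc receptors 3 were higher, Cd274, which encodes PD-L1 (39.0 to 96.2, 1.28), and the near-identical Pilrb1 (8.62 to 30.2) and Pilrb2 (4.30 to 21.8), whose separate values are uncertain. The costimulatory ligands Cd80 (21.2 to 47.9, 1.14) and Icosl (12.5 to 26.5, 1.02) were the higher genes of 26 in antigen presentation. Of 50 adhesion genes 4 were higher, Cd69, Icam1, Vcam1 (16.3 to 103, 2.60) and the matrix protein gene Thbs1 (205 to 649, 1.66). Adam17, the protease that sheds TNF from the cell surface, rose from 26.4 to 71.1 FPKM.

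Genes on both sides of cell survival rose. Of 19 BCL2 family genes 6 were higher while the median was -0.05. The higher genes were the pro-survival Mcl1 (187 to 394, 1.07) and 3 Bcl2a1 copies, which may share reads, and the pro-death Bcl2l11 (BIM) and Pmaip1 (98.1 to 220, 1.16). Bax stood at 83.7 and 81.0. Of 39 IAP, TRAF, RIP and caspase genes 5 were higher, with Tnfaip2 (15.9 to 61.3, 1.88) and Casp4 (3.87 to 11.9, 1.41), and Tnfaip8l2 was lower (61.7 to 19.9, -1.58). Of 26 p53 and damage targets Ddit4 (65.2 to 160.0, 1.28) and the cell cycle inhibitor Cdkn1a (50.3 to 104, 1.03) were higher, and the related inhibitor Cdkn1b stood at 58.9 and 33.5 (-0.80).

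Metabolic lists had between 1 and 3 higher genes each. The glucose transporter Slc2a6 (33.6 to 252, 2.87) was the 1 higher gene of 39 in glycolysis and hypoxia, where Aldoa stood at 1315 and 1247. Of 45 cholesterol and fatty acid genes 2 were higher, among them Insig1, a brake on sterol synthesis (43.2 to 95.4, 1.13). Of 31 arginine, polyamine and itaconate genes 3 were higher, the itaconate synthesis gene Irg1 (25.9 to 551, 4.36), the mitochondrial arginase gene Arg2 (90.7 to 219, 1.26) and Gch1, the first enzyme of tetrahydrobiopterin synthesis (4.69 to 10.4, 1.00). Of 41 oxidant and antioxidant genes Sod2, the mitochondrial superoxide dismutase, alone was higher (9.18 to 44.5, 2.16), but 35 of the 41 lay above 0 and 8 between 0.5 and 1. Among 21 prostaglandin and leukotriene genes Ptgs2 alone was higher, while Alox5ap stood at 1749 and 1659 and Alox15 at 1099 and 1057. Of 61 interferon-stimulated genes 2 were higher, Cxcl10 and Gbp2 (4.42 to 11.8, 1.24), and the median was -0.02.

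Housekeeping lists had medians near 0. None of 75 cytosolic ribosomal protein genes was higher (median 0.02), none of 79 respiratory chain genes (-0.01) and none of 37 proteasome genes (0.04), against 1.98% of all genes. In the first of these lists Rps27 was lower (164 to 73.7, -1.15), with similar copies that may share its reads, and in the second Cox6b2 (4.39 to 1.63, -1.04). Zinc finger protein genes, mostly DNA-binding repressors, had small shifts downward. Of 210 named Zfp genes 161 (76.7%) had a change below 0, against 52.4% of all 10479 genes, and their median was -0.21. Split by untreated level, they had a median of -0.22 for 108 of them at 1 to 5 FPKM and -0.21 for 83 at 5 to 20, beside -0.02 and -0.03 for all genes of those levels. The 13 at 20 to 100 FPKM had a median of -0.04, beside -0.01 for all genes. Their median was -0.02 with IL-33 at 4 h and -0.03 with IL-4 at 1 h, which shares the untreated library. Within the set of 210, 4 genes were higher, near the share of 1.98% over all genes. They were Zfp599 (0.253 to 2.19), Zfp429 (2.91 to 7.96), Zfp62 (11.3 to 25.0, 1.08) and Zfp275 (5.01 to 11.3, 1.04). Another 21 lay between -1 and -0.5.

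Of the 207 higher genes 65 stood in no list. Those named here were picked out after their values were seen and stand for no group. Among them were Ehd1, of endosome recycling (95.9 to 312 FPKM, 1.69), Rabgef1, an exchange factor of Rab5 (67.1 to 153, 1.17), Rab11fip1 (16.1 to 57.2, 1.76), Arf4 (59.3 to 152, 1.35), the SNARE gene Stx11 (31.9 to 67.5, 1.06), Snx10 (11.5 to 25.0, 1.05) and the coat protein gene Sec24a (3.04 to 15.3, 2.01). Of the 40 compared Rab GTPase genes 2 were higher, Rab20 (16.2 to 102, 2.58) and Rab38 (1.24 to 6.43, 1.73), and Rab39 was lower (3.38 to 1.08, -1.08). The median of that list was -0.02, and Rab7 stood at 490 and 667 and Rab5c at 171 and 174. Chka, the choline kinase of phospholipid synthesis (11.6 to 47.0, 1.92), Sgms2, a sphingomyelin synthase (17.8 to 42.0), and Smpdl3b, a membrane phosphodiesterase (0.521 to 8.50, 2.64), act on lipids. Ell2, an elongation factor of RNA polymerase II (15.7 to 50.9, 1.63), Skil, a repressor of SMAD signalling (24.5 to 66.8, 1.41), Alas1, the first enzyme of haem synthesis (79.7 to 209, 1.38), and F2r, the thrombin receptor (78.1 to 166, 1.08), were also among the 65.

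The 30 lower genes included few signalling families. Besides those named above they held Nfe2, a factor of megakaryocyte and erythroid genes (170 to 80.0 FPKM, -1.07), Hhex, a homeobox factor of blood progenitors (62.6 to 27.8, -1.14), Axin2, a feedback gene of WNT signalling (12.1 to 4.88, -1.15), Tuba8 (103 to 44.6, -1.18), Fam46a (46.2 to 17.5, -1.36), Thbd, which encodes thrombomodulin (5.10 to 1.96, -1.04), and the zinc finger genes Zscan2 (6.35 to 1.88, -1.35) and Zkscan14 (10.5 to 4.70, -1.01). B3gnt7 rested on about 430 reads without cytokine and 77 with IL-33, by the depth estimate. Larger losses in level were seen in genes under the rule, such as Ctsd (5807 and 5452 FPKM), Cd24a (2163 and 1835) and the adaptor gene Gapt (322 and 214, -0.59).

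Some of these calls rest on the pseudocount. With 5 in place of 1, the lower genes Gpr146, Tob1, Tsc22d3, Axin2, Zscan2, Zkscan14, Thbd, Cox6b2 and Rab39 were no longer past the rule, with changes from -0.96 for Tob1 to -0.46 for Rab39. Nor were the higher genes Map3k8, Tifa, Zc3h12c, Zfp36l1, Dusp8, Socs3, Fosb, Irf5, Bmp2, Ccl20, Ccl7 and Ifnar1. The same held for Gpr84, Ptgir, Cd14, Tlr9, Icosl, Casp4, Cdkn1a, Gbp2, Gch1, Rab38 and the 4 zinc finger genes. A pseudocount cannot reverse the direction of a change. Against the untreated library of 4 h, from its separately normalised table, Ahr (-0.49), Rgs2 (-0.88), Hhex (-0.61), Thbd and Zkscan14 were not past it, and Rps27 went the other way (3.29). Among the higher genes Tifa, N4bp1, Zfp36l1, Mcl1, Il16, Ccl7, Ifnar1, Ptgir, Tlr9, Icosl, Insig1, Zfp429 and Zfp62 were not past it there, with changes from 0.48 for Il16 to 0.94 for Mcl1. By the leading transcript alone Cox6b2 (-0.28) and Zfp275 (0.96) were not past it.

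Genes of the response had compact loci, though their leading transcripts were nearly as long as others. The median transcript length was 2616 bases for the higher genes, 2582 for the lower and 2797 for those within 0.5. The median span of the gene locus in mm9 was 8064 bases for genes higher by at least 3, 9422 for rises of 2 to 3, 15798 for rises of 1 to 2 and 23629 for genes within 0.5. Lower genes were as short, at 7239 bases. Overlapping genes share a locus in the deposited table, and without those that do the medians were 8045, 8265, 14856, 21287 and 6825. Pde4b, with a locus of 352521 bases, was the longest of those described above. In the GENCODE M21 annotation, matched by RefSeq accession, the leading transcript had a median of 5 exons among the higher genes, 3 among the lower and 9 among those within 0.5. Transcripts of 1 or 2 exons made up 18.9% of the higher genes, 46.7% of the lower and 6.02% of those within 0.5. Niacr1, Frat1, Frat2 and Thbd each have 1 exon, and Rab20, Egr3, Tob1 and B3gnt7 have 2.

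Read the other way, the share of genes with changes of at least 0.5 varied with exon number in both directions. Of 274 genes with 1 exon 15.7% were lower by at least 0.5 and 9.49% higher by as much, and of 487 with 2 exons 14.6% and 12.1%. The shares were 6.46% and 7.56% for 3 to 4 exons, 3.75% and 5.43% for 5 to 8, 1.93% and 4.18% for 9 to 15, and 0.550% and 2.66% for 2180 genes with 16 exons or more. With IL-33 at 4 h, against the control of that time, the lower genes were 7.66% of those with 1 exon and 9.08% of those with 16 or more. With IL-4 at 1 h, which shares the untreated library, they were 1.46% and 0%. The median untreated level was 6.34 FPKM for 1 exon and 10.1 for 16 or more. Among genes with at least 5 FPKM, a limit chosen after seeing the data, the shares of lower genes with IL-33 at 1 h were 13.4% and 0.568%. Whether transcript length has a part in this was not tested.

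**Figure D4:**
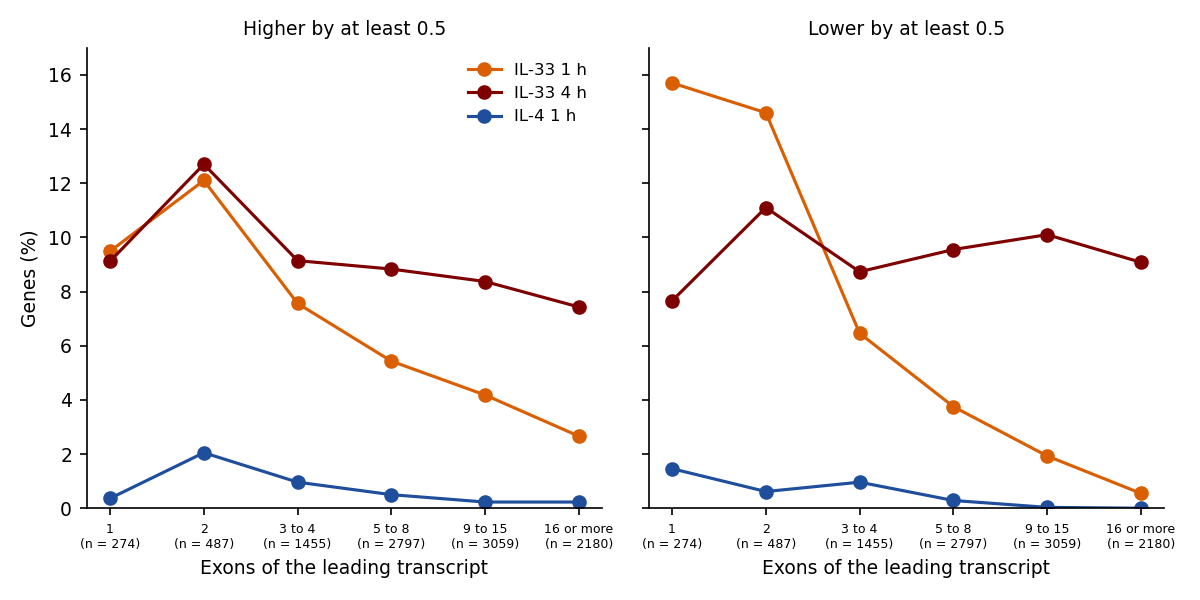
Share of genes (vertical axis, percent) higher (left) or lower (right) by at least 0.5 log2, by number of exons of the leading transcript (horizontal axis, with the number of genes), for IL-33 at 1 h and 4 h and IL-4 at 1 h. With IL-33 at 1 h the lower share goes from 15.7% at 1 exon to 0.550% at 16 or more, while at 4 h it lies between 7.66% and 11.1% throughout.

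Some higher genes were neighbours. Of the 207, 28 (13.5%) lay within 100 kb of another, in 14 pairs. Of the 10272 genes that were not higher, 664 (6.46%) lay as near to a higher gene. Family members and overlapping loci are in both counts, and the difference was not tested. Several pairs are of 1 family, such as Ccl3 and Ccl4 on chromosome 11 (13206 bases apart in mm9), Cxcl1 and Cxcl2 on chromosome 5 (10784), Il1a and Il1b on chromosome 2 (54608) and Gbp1 and Gbp2 on chromosome 3 (1487). Other pairs, counted by the same rule and named after their values were seen, are of unrelated genes. Xkr8, a phospholipid scramblase relative (0.846 to 3.66 FPKM), lay 420 bases from Smpdl3b on chromosome 4. Mapkapk2 lay 30898 bases from the kinase gene Dyrk3 (1.15 to 5.51) on chromosome 1. Tlr9 and Alas1 on chromosome 9 were 6579 bases apart. Psd (0.303 to 4.19) overlaps the locus of Nfkb2 on chromosome 19, and without stated strand its reads cannot be told from those of Nfkb2. Of the lower genes, Frat1 with Frat2 and Tuba8 with Usp18 made the 2 pairs.

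The size classes of 1 h were then read in the other libraries, each against the control of its own table. At 4 h, where 3.72% of 10654 genes were higher with IL-33 and 1.06% lower, all 22 genes of the top class were higher again, with a median of 3.46. Of 35 compared genes with rises of 2 to 3, 30 were higher (median 2.27), of 143 with rises of 1 to 2, 81 (1.06), and of 321 between 0.5 and 1, 85 (0.46). Of the 30 lower genes 7 were lower at 4 h, among them Tob1 (51.0 and 20.8 FPKM), Frat1 (10.5 and 3.81), Frat2 (19.4 and 7.41) and Tsc22d3 (59.6 and 29.3), and the median was -0.46. B3gnt7 stood at 10.9 and 11.8 FPKM at 4 h, Usp18 at 47.0 and 50.6 and Nfe2 at 167 and 154. The 4 h comparison has its own untreated library.

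The 8 genes past 2 at 1 h and not past the rule at 4 h were Gem (0.266 and 0.439 FPKM at 4 h), Sec24a (3.81 and 3.11), Junb (61.2 and 99.1, 0.69), Dusp2 (1.59 and 3.78, 0.88), Pim1 (0.97), Ccl20 (0.98), Bcl2l11 (0.99) and the host RNA gene Snhg9. Bcl2l11 and Pim1 thus missed it narrowly. Ccl20 (0 and 0.978 FPKM at 4 h), Gem and Snhg9 were under the filter at 4 h and so were not compared there. With IL-4, the medians of the top class were 0.24 at 1 h and -0.06 at 4 h, and those of the genes with rises of 1 to 2 were 0.00 and 0.01. Pde4b had a change of 0.76 with IL-4 at 1 h and Nfkbiz one of 0.10. IL-4 at 1 h was compared with the same untreated library as IL-33 at 1 h, so the 2 changes are not independent.

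**Figure D5:**
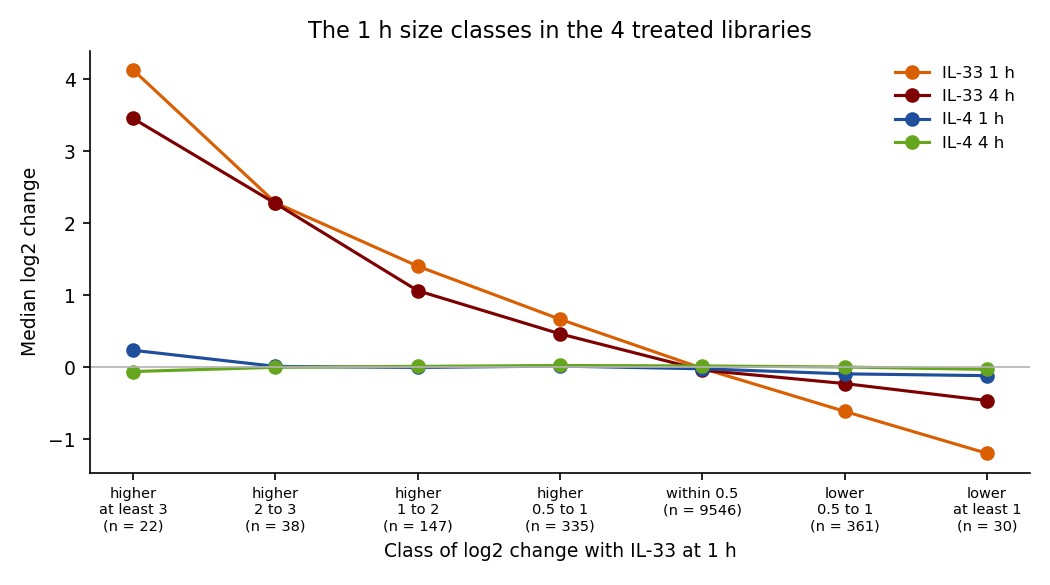
Median log2 change (vertical axis) of the genes of each 1 h size class (horizontal axis, with the number of genes) in the 4 treated libraries, each against the control of its own table. The IL-33 medians at 4 h run from 3.46 in the top class to -0.46 in the class of lower genes, and the IL-4 medians lie between -0.12 and 0.24.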

How the data were processed

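RNA of 2 libraries of cultured eosinophils was compared, with the 4 other libraries beside them. FPKM values per transcript were deposited by the authors in tables of 1 treated library and its control. The submitters' processing notes name TopHat 1.4.1, Cuffdiff 1.2.1 and the build mm9. Neither trimming nor strandedness nor the RefSeq release is given in the sources used here. Each table was normalised on its own, so levels across tables are only set side by side: the untreated 1 h library has 0.945 times the values in the IL-33 table that it has in the IL-4 table. The log2 fold changes in the authors' deposited list equalled those of this table for 100% of 327 genes with 1 transcript, within 0.01, and were not used further.

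Transcripts were summed per symbol with pandas 2.3.3 in Python 3.11.15. For 232 symbols at several loci, the locus with the highest FPKM summed over the tables was kept. Promoters came from RefSeq (GRCm38.p6) and exon numbers from GENCODE M21, by accession, while locus spans are those of the deposited mm9 tables. A pseudocount of 1 and a filter of 1 FPKM were used. The 58 gene lists and the members were chosen with earlier results of these data known. Named genes were, per list, up to 6 with the largest rise and up to 3 abundant members not past the rule, per size class up to 10, lower genes with 5 FPKM or more up to 30, and the 15 largest gains and losses in FPKM. Il1rl1, Il4, Il5, Il13, Il6, Csf2, Tnf and Il1b were always named. Genes of no list, and of the neighbour pairs, were picked after their values were seen. Reads per kilobase were estimated from the lowest step of values, held by 312 transcripts in the untreated library and 308 with IL-33. The relative depth of 1.16 came from 2364 transcripts with low values, as reads were not used here. The steps were tested on simulated data. Alternatives covered the pseudocount, the filter, centring, transcripts, the control and small RNA genes. Some genes that were measured are not reported here. The tables' p-values compare libraries and were not used.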

Additional observations from a re-analysis of the deposited data

Results flagged for a closer look

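Fam46c, which encodes a non-canonical poly(A) polymerase, was higher with IL-33 at 1 h (45.1 to 95.3 FPKM, log2 change 1.06) and changed the other way at 4 h (38.6 and 26.1 FPKM, -0.55), each against the untreated library of its time. It stands here because the 2 times differ in direction. The difference was not tested, since each side is 1 library.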

How the results depend on the processing

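The counts over all compared genes, 251 higher and 71 lower, were read under 8 alternatives. The higher genes numbered 183 to 313 under 7 of them, and 433 with the control of 4 h, from a separately normalised table. The lower genes numbered 127 with a pseudocount of 0.1, 345 with the control of 4 h and 30 without small RNA genes, and 53 to 97 under the others. Of 176 named genes past the rule, 165 reached the stricter filter of 5 FPKM, which does not alter a change itself. All 176 stayed past the rule after centring. The median used for centring was -0.006, so it could end only a call at the very edge of the rule. A smaller pseudocount, no filter and leaving out small RNA genes cannot end such a call. With a pseudocount of 5, 47 were no longer past it, with the leading transcript alone 4, and with the control of 4 h 20, while Rps27 went to 3.29. The cause was not tested. The pairs of neighbouring higher genes, 14 within 100 kb, were 25 within 250 kb and 24 with small RNA genes. With 250 bases before the start alone, the kappa B share was 42.1% for genes higher by at least 3 and 4.82% within 0.5. No paired analysis was possible because each group has 1 library. At 1 FPKM, a transcript of 1 kb has about 20.7 reads in the untreated library, which limits what low genes can show.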
